A study of Mus musculus with 9 samples.

Results

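The results below concern 10 chemokine genes of mouse Neuro2A cells, a neuroblastoma line: Cxcl10, Cxcl9, Cxcl11, Ccl5, Ccl2, Ccl7, Cxcl1, Cxcl2, Cx3cl1 and Cxcl12. They were chosen by symbol and with earlier results of these data known, because Cxcl10 had one of the highest ratios against untransfected cells. All 10 were found among the array features with 1 annotated gene symbol, as 11 features among 16504 genes on one array platform and as 14 features among 19087 genes on the other.

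The study asked which genes are regulated by CCAT, a protein made of the C-terminus of the calcium channel CaV1.2. Every transfected cell carried the PA1 plasmid, and GFP-positive cells were sorted 24 hours after lipid transfection. Cells labelled FL expressed full-length CCAT, the last 503 amino acids of the channel. Cells labelled DTA expressed the last 280 amino acids, a form without the activation domain that, per the labels, still activated transcription weakly. On 3 arrays FL was compared with untransfected cells that had also been passed through the sorter, on 3 arrays DTA was compared with such cells, and on 3 arrays of the other platform FL was compared with cells that had received the plasmid without CCAT (empty vector). FL and DTA thus share the kind of control, and the empty vector was compared with FL only. Whether the replicates were grown and transfected separately is not stated, so p-values reflect array-to-array spread alone, part of which may be technical.

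Each value is a ratio of both colours of an array on the log2 scale, where 1 is a doubling. The dye labels put CCAT RNA in the same dye on every array, so a dye effect would stay in every ratio. For FL replicate 1 against empty vector, the treatment text of the control RNA names the green channel although its dye label is that of the red one, and the array was used as labelled. The order of the ratio is not stated. A positive value is taken here as higher in CCAT cells, which is likely, because, according to the design text, some genes rose with the plasmid by itself, and because Gjb5, reported by the study as activated by CCAT, had log2 ratios of 3.18 (SD 0.62, n = 3) for FL against untransfected cells and 3.84 (SD 0.11, n = 3) against empty vector. If the order is the reverse, all directions turn together. The treatment text of DTA replicate 3 gives full-length CCAT, whereas its title and source give the truncated form; it was used as titled. Over all genes of a platform, replicate arrays against untransfected cells correlated at r = 0.840 to 0.899 (FL) and 0.918 to 0.949 (DTA), and those against empty vector at 0.814 to 0.825. The values hold no intensities, so levels of different genes, absence from a cell type and the neuroblastoma identity of the cells cannot be read from them. In bulk samples, fewer cells with a transcript and less of it per cell cannot be told apart.

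Chemokines are small secreted proteins that steer migrating cells through G protein-coupled receptors. Cxcl9, Cxcl10 and Cxcl11 are ligands of Cxcr3, a receptor of activated T cells and natural killer cells, and are classical interferon targets. Ccl5 attracts T cells and monocytes and is induced by interferon regulatory factors and NF-kappaB, while Ccl2 and Ccl7 attract monocytes through Ccr2. Cxcl1 and Cxcl2 attract neutrophils through Cxcr2 and are classical NF-kappaB targets. Cx3cl1 (fractalkine) is made by neurons as a membrane-bound protein that is shed by proteases, and Cxcl12 is a homeostatic chemokine that guides neuronal precursors through Cxcr4.

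Promoter windows from RefSeq (GRCm38.p6) were on hand for 6 of the 10 genes, Cxcl10, Cxcl9, Cxcl1, Cxcl2, Cx3cl1 and Cxcl12. Below are the 250 bases before the annotated start of Cxcl10 (chr5:92348890-92349139, minus strand), which had the highest ratio of the 10 genes, of Cxcl9 (chr5:92328080-92328329, minus strand), a neighbour with a small ratio, and of Cx3cl1 (chr8:94771930-94772179, plus strand), the member with the highest ratio against empty vector. They are written 5′ to 3′ along the gene, and capitals mark matches on either strand to GAAANNGAA (the core of the interferon-stimulated response element), GGNNNTTCC (the kappaB site) and TATAAA (the TATA box).
Cxcl10: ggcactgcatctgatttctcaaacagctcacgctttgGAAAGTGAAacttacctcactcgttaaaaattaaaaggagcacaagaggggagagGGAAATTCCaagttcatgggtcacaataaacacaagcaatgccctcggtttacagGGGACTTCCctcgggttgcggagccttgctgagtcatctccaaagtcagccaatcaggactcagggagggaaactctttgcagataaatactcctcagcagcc
Cxcl9: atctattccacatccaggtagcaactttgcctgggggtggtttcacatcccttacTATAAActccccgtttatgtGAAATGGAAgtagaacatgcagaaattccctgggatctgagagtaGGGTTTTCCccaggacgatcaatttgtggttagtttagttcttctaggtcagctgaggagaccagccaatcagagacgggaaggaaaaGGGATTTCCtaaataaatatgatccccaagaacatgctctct
Cx3cl1: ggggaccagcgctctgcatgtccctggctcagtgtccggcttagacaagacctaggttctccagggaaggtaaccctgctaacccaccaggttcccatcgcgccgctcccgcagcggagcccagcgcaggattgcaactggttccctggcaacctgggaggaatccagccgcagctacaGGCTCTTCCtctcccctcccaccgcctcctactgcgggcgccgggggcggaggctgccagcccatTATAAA
The element core was found once in the Cxcl10 window, starting 213 bases before the start, and once in the Cxcl9 window, starting 175 bases before it. It was not found in the other 4 windows, and 7.13% of all 32851 windows of the same length hold it. The kappaB letters were found at 2 places each in the windows of Cxcl10, Cxcl9, Cxcl1 and Cxcl2, at 1 place in that of Cx3cl1 and not in that of Cxcl12, against 15.7% of all windows with a match. The TATAAA letters, present in 12.4% of windows, were found in that of Cxcl9, starting 195 bases before the start, and in that of Cx3cl1, starting 6 bases before it. Only these exact letters were marked, so a window without them may still hold a variant. A match of letters does not show a site in use, and Cxcl10 and Cxcl9, whose windows share 2 of these motifs, had very different ratios, as given next.

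Cxcl10 stood far above the other members in cells with either construct when untransfected cells were the control. Its log2 ratio was 5.32, 5.54 and 5.29 on the 3 FL arrays (mean 5.38, SD 0.14, n = 3), a 41.7-fold higher level and rank 2 of 16504 genes. With DTA it was 5.45, 5.56 and 5.62 (mean 5.54, SD 0.09, n = 3), a 46.6-fold higher level and rank 1. These values singled Cxcl10 out and are given as a description, with no test. Against empty vector the same gene had 0.21, 0.23 and 0.24 (mean 0.23, SD 0.02, n = 3), which is 1.17-fold, so all 3 arrays lay above 0 and far below the 6 arrays against untransfected cells. The ratio against empty vector passed the test (limma, 95% interval 0.18 to 0.27, adjusted p = 0.00259). These 2 controls were measured on different platforms, and their ratios were not tested against each other.

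The truncated construct gave Cxcl10 a ratio close to that of the full-length one, and the difference FL minus DTA was -0.16 (SE 0.08, 95% interval -0.36 to 0.05, limma adjusted p = 0.196). The FL and DTA arrays overlapped. The test did not call the gene, and its interval leaves room for a ratio up to 0.36 lower or 0.05 higher with FL. Without FL replicate 2 the difference was -0.24 and passed (adjusted p = 0.0457).

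Cxcl9, another Cxcr3 ligand and a near neighbour of Cxcl10 on chromosome 5, had small ratios. Its log2 ratio was 0.20, -0.01 and 0.51 with FL (mean 0.23, SD 0.26, n = 3) and 0.12, 0.27 and 0.27 with DTA (mean 0.22, SD 0.09, n = 3) against untransfected cells. The arrays of both groups overlapped, and FL minus DTA was 0.01 (SE 0.13, 95% interval -0.32 to 0.34, limma adjusted p = 0.951). Against empty vector Cxcl9 was higher with FL on every array, at 0.51, 0.25 and 0.36 (mean 0.37, SD 0.13, n = 3, 1.29-fold, 95% interval 0.20 to 0.54, limma adjusted p = 0.0119). Without replicate 3 the adjusted p was 0.0529.

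Cxcl11, the third Cxcr3 ligand, is annotated as a transcribed pseudogene in the C57BL/6J assembly GRCm38.p6, next to Cxcl10. It varied in sign on the FL arrays, -0.10, -0.25 and 0.53 (mean 0.06, SD 0.42, n = 3), and was below 0 on every DTA array, at -0.63, -0.17 and -0.35 (mean -0.39, SD 0.23, n = 3). The groups overlapped, and FL minus DTA was 0.45 (SE 0.23, 95% interval -0.12 to 1.01, limma adjusted p = 0.189). Against empty vector the mean was 0.03 (SD 0.14, n = 3, 95% interval -0.16 to 0.21, limma adjusted p = 0.750).

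**Figure D1:**
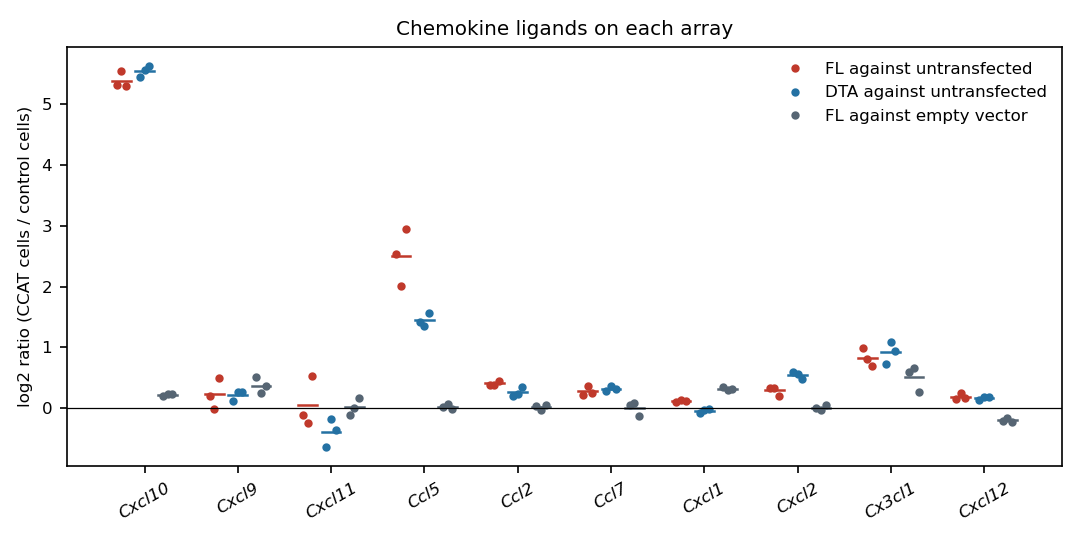
Log2 ratio (CCAT cells over control cells) of the 10 chemokine genes on each array, one point per array and one short line per group mean, in FL against untransfected cells (red), DTA against untransfected cells (blue) and FL against empty vector (grey), with 3 arrays each. Cxcl10 lies between 5.29 and 5.62 on the 6 arrays against untransfected cells and between 0.21 and 0.24 against empty vector, and Ccl5 is the only other gene with a mean above 1.

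Genes beside Cxcl10 on the chromosome had much smaller ratios than Cxcl10 itself. Nearly any gene would, because Cxcl10 was chosen for its high ratio, so the values of its neighbours are a description. In the order of the RefSeq annotation Cxcl10 is flanked by Art3, an ADP-ribosyltransferase gene, whose means against untransfected cells were 0.16 with FL and 0.10 with DTA, and by Cxcl11, described above. Beyond Cxcl11 lie Nup54, a nuclear pore gene, at 0.45 (FL) and 0.17 (DTA), and Scarb2, a lysosomal membrane protein gene, at 0.80 and 0.77. Around Ccl5, the neighbour Taf15 had means of 0.43 (FL) and -0.59 (DTA), and the next chemokine genes Ccl9, Ccl6, Ccl3 and Ccl4 had FL means from -0.46 to 0.08.

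**Figure D2:**
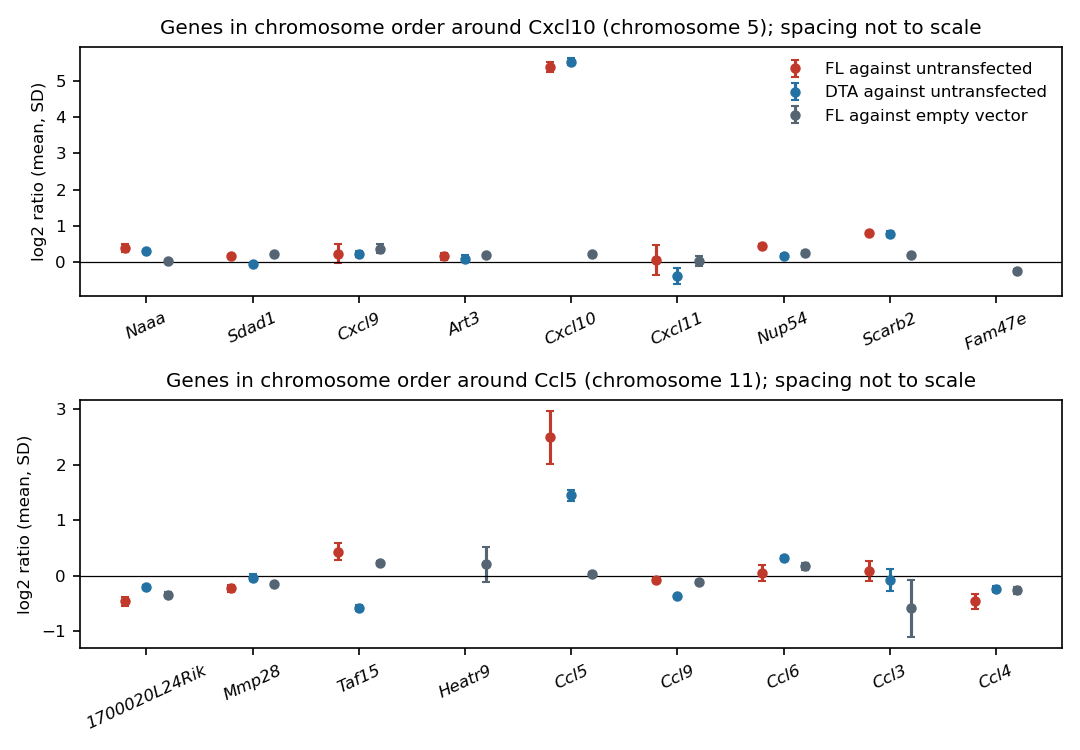
Mean log2 ratio with SD (3 arrays per group) of the genes in chromosome order around Cxcl10 (top) and Ccl5 (bottom), with even spacing in place of distance. The ratio of Cxcl10 against untransfected cells (5.38 with FL, 5.54 with DTA) and that of Ccl5 (2.50 and 1.44) stand above those of all plotted neighbours. Cxcl10 was chosen for its high ratio. Fam47e and Heatr9 were measured against empty vector only.

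Ccl5, the T cell and monocyte attractant also called RANTES, had the second highest ratios of the members. Against untransfected cells it was 2.53, 2.00 and 2.95 with FL (mean 2.50, SD 0.48, n = 3, 5.64-fold, rank 15 of 16504 genes) and 1.42, 1.35 and 1.56 with DTA (mean 1.44, SD 0.11, n = 3, 2.72-fold, rank 91). All FL arrays lay above all DTA arrays. FL minus DTA was 1.05 (SE 0.23, 95% interval 0.47 to 1.63, limma adjusted p = 0.0195), a 2.07-fold higher ratio with full-length CCAT. The call was lost for 4 of the 6 arrays when each was left out: the adjusted p was 0.0535 without FL replicate 1 and 0.0651, 0.0679 and 0.0532 without DTA replicates 1, 2 and 3. It was 0.00719 and 0.0227 without FL replicates 2 and 3, and the difference lay between 0.82 and 1.30 throughout.

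Against empty vector, in contrast, Ccl5 was at 0.01, 0.06 and -0.01 (mean 0.02, SD 0.04, n = 3), and the test did not call it (limma 95% interval -0.04 to 0.09, adjusted p = 0.420). The mean joins 2 features that lay on either side of 0: the feature annotated as NM_013653, which is the one present on the other platform too, was 0.10, 0.15 and 0.05 (mean 0.10, SD 0.05, n = 3), and that annotated as BC033508 was -0.06 (SD 0.03, n = 3). Tested alone, the first passed (limma adjusted p = 0.0428) and the second did not (adjusted p = 0.0706). Both means lie within 0.10 of 0, whereas the FL arrays against untransfected cells started at 2.00.

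The monocyte attractants Ccl2 and Ccl7, neighbours on chromosome 11, had modest ratios with both constructs. Ccl2 was 0.39, 0.39 and 0.45 with FL (mean 0.41, SD 0.04, n = 3) and 0.20, 0.23 and 0.36 with DTA (mean 0.26, SD 0.08, n = 3). The FL arrays lay above the DTA arrays, but the difference of 0.15 (SE 0.05, 95% interval 0.02 to 0.27) did not pass the test over all genes (limma adjusted p = 0.0692). It did pass with quantile normalization (adjusted p = 0.0394) and without DTA replicate 3 (0.0357). Ccl7 was 0.22, 0.37 and 0.24 with FL and 0.28, 0.37 and 0.31 with DTA, groups that overlapped (FL minus DTA -0.04, 95% interval -0.17 to 0.08, limma adjusted p = 0.576). Against empty vector the means were 0.02 for Ccl2 (SD 0.05, n = 3, limma adjusted p = 0.506) and 0.01 for Ccl7 (SD 0.12, n = 3, adjusted p = 0.940). Both features of Ccl7 there carry the same transcript accession, yet their means were -0.15 (SD 0.08) and 0.16 (SD 0.21). The lower feature passed the test on its own (limma adjusted p = 0.0427), and the other did not (adjusted p = 0.216).

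Cxcl1 and Cxcl2, neutrophil attractants encoded next to each other on chromosome 5, differed between the constructs in opposite directions. Cxcl1 was 0.11, 0.13 and 0.11 with FL (mean 0.12, SD 0.01, n = 3) and -0.08, -0.03 and -0.01 with DTA (mean -0.04, SD 0.04, n = 3). FL minus DTA was 0.16 (SE 0.03, 95% interval 0.08 to 0.23, limma adjusted p = 0.0125), without overlap of the arrays. Cxcl2 was 0.33, 0.34 and 0.21 with FL (mean 0.29, SD 0.07, n = 3) and 0.60, 0.57 and 0.49 with DTA (mean 0.55, SD 0.06, n = 3). Here all DTA arrays lay above all FL arrays, and FL minus DTA was -0.26 (SE 0.05, 95% interval -0.38 to -0.13, limma adjusted p = 0.0125). The limma adjusted p of Cxcl2 was 0.0515 without DTA replicate 2, and that of Cxcl1 was 0.0502 with the replicate number as a block.

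Against empty vector Cxcl1 rose with FL, at 0.35, 0.30 and 0.31 (mean 0.32, SD 0.02, n = 3, 1.25-fold, 95% interval 0.27 to 0.37, limma adjusted p = 0.0022), the smallest adjusted p among the 10 genes in that comparison. Cxcl2 lay around 0 there (mean 0.01, SD 0.04, n = 3, 95% interval -0.06 to 0.08, limma adjusted p = 0.757). The 2 genes thus differed in which control gave the larger ratio: for Cxcl1 it was the empty vector, and for Cxcl2 the untransfected cells, values from different platforms that were not tested against each other.

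Cx3cl1, the neuronal membrane-bound chemokine, had the third highest gene mean against untransfected cells, 0.83 with FL (SD 0.15, n = 3, 1.78-fold) and 0.92 with DTA (SD 0.18, n = 3, 1.89-fold), and the highest of the members against empty vector, 0.51 (SD 0.21, n = 3, 1.43-fold). These means join 2 features that did not move together. The feature annotated as NM_009142 was 1.64, 1.90 and 1.26 with FL (mean 1.60, SD 0.32, n = 3, 3.03-fold) and 1.00, 0.97 and 0.82 with DTA (mean 0.93, SD 0.09, n = 3). The feature annotated as AB030188 was 0.34, -0.29 and 0.12 with FL (mean 0.06, SD 0.32, n = 3) and 0.47, 1.20 and 1.06 with DTA (mean 0.91, SD 0.39, n = 3). FL was the higher construct on the first feature and DTA on the second, on every array.

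For the gene mean of Cx3cl1, FL minus DTA was -0.09 (SE 0.11, 95% interval -0.37 to 0.19, limma adjusted p = 0.577). Tested singly, the feature NM_009142 was 0.67 higher with FL (95% interval 0.27 to 1.07, limma adjusted p = 0.0255) and the feature AB030188 was lower, at -0.85 (95% interval -1.46 to -0.25, adjusted p = 0.0425). The direction of the difference therefore depends on the feature. Against empty vector both features were higher with FL: NM_009142 at 0.97, 1.11 and 0.44 (mean 0.84, SD 0.35, n = 3, limma adjusted p = 0.0205) and AB030188 at 0.22, 0.23 and 0.10 (mean 0.18, SD 0.07, n = 3, adjusted p = 0.0195). The gene mean passed there too (95% interval 0.24 to 0.79, limma adjusted p = 0.0165), but not without replicate 1 (adjusted p = 0.0811) or replicate 2 (0.0642).

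Cxcl12, the ligand of Cxcr4, changed little against untransfected cells, 0.15, 0.25 and 0.17 with FL (mean 0.19, SD 0.05, n = 3) and 0.13, 0.19 and 0.18 with DTA (mean 0.17, SD 0.03, n = 3). FL minus DTA was 0.02 (SE 0.04, 95% interval -0.07 to 0.12, limma adjusted p = 0.693). Against empty vector its gene mean fell, at -0.20 (SD 0.03, n = 3, 95% interval -0.26 to -0.14, limma adjusted p = 0.00476), and it was the only member to do so. That decrease came from 1 of 2 features, annotated as different Cxcl12 transcripts: NM_021704 was -0.44, -0.38 and -0.44 (mean -0.42, SD 0.03, n = 3, limma adjusted p = 0.00253), and NM_013655, the one measured on the other platform as well, was 0.01, 0.07 and 0.01 (mean 0.03, SD 0.04, n = 3, adjusted p = 0.324).

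**Figure D3:**
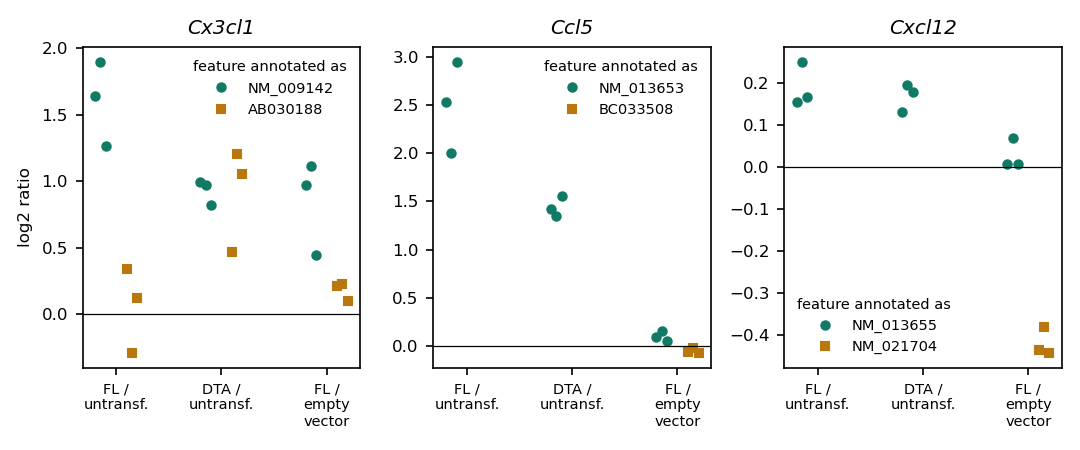
Log2 ratio of each array feature of Cx3cl1, Ccl5 and Cxcl12, one point per array and 3 arrays per group, with the 2 features of a gene in different colours and each panel on its own vertical scale. For Cx3cl1 the feature NM_009142 lies between 1.26 and 1.90 with FL against untransfected cells while AB030188 lies between -0.29 and 0.34, and for Cxcl12 the feature NM_021704 lies near -0.4 against empty vector while NM_013655 lies near 0.

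The counts over the 10 genes read as follows beside those over all genes. In FL minus DTA, limma called 3 of 10 members, Ccl5 and Cxcl1 higher and Cxcl2 lower, against 34.2% of all 16504 genes (18.2% higher, 16.1% lower), so the share of members is near the background. The arrays of both constructs did not overlap for 4 of 10 members (Ccl5, Ccl2, Cxcl1 and Cxcl2), against 50% of all genes. Against empty vector 5 of 10 members were called, Cxcl10, Cxcl9, Cxcl1 and Cx3cl1 higher and Cxcl12 lower, against 63.4% of all 19087 genes (30.6% higher, 32.8% lower). None of the 10 reached a 2-fold change there, which 0.278% of all genes did by mean ratio and 0.262% with a call as well. In FL minus DTA, Ccl5 was the only called member with a 2-fold difference, against 0.418% of all genes.

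Against untransfected cells 2 of 10 members, Cxcl10 and Ccl5, had a mean ratio at least 2-fold from 1 with FL and also with DTA, where 1.63% and 2.34% of all genes did. At 1.5-fold Cx3cl1 was added in both (8.67% and 10.9% of all genes), and no member reached 1.5-fold by gene mean against empty vector (2.28% of all genes). The single feature NM_009142 of Cx3cl1 was 1.79-fold there. The choice of members used the ratios against untransfected cells, so nothing is read from those counts. All 3 arrays were above 0 for 8 members with FL and for 8 with DTA (38.5% and 42.8% of all genes), and for 4 members against empty vector (39.1% of all genes). The median ratio of the members was 0.29 with FL, 0.29 with DTA and 0.02 against empty vector, and the medians of all genes were within 0.01 of 0 in each comparison.

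**Figure D4:**
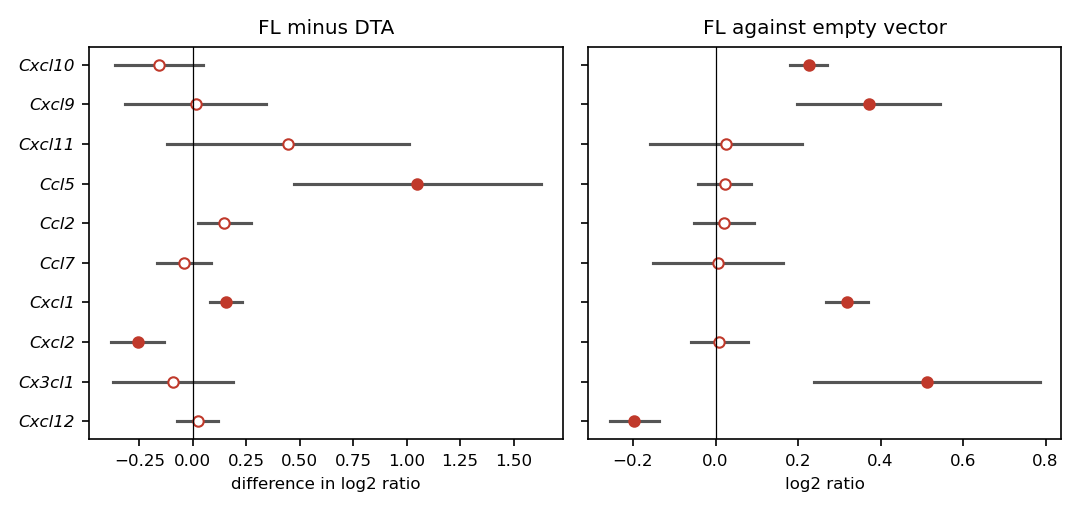
Difference in log2 ratio between FL and DTA, each against untransfected cells (left), and log2 ratio of FL against empty vector (right) for the 10 genes, with 95% intervals from limma; filled circles passed an adjusted p of 0.05 over all genes and open circles did not. The difference of Ccl5, 1.05 (0.47 to 1.63), is the largest on the left, and Cx3cl1, 0.51 (0.24 to 0.79), has the highest ratio on the right.

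The order of the ratios was similar at its top for both constructs. Against untransfected cells Cxcl10 was followed by Ccl5 and Cx3cl1 with FL and with DTA, and the arrays of neighbouring genes in this order did not overlap down to the 5th place. Below that, with FL, the arrays of Cxcl2, Ccl7, Cxcl9 and Cxcl12 overlapped from one gene to the next, as did those of Cxcl1 and Cxcl11. With DTA Cxcl2 came next, and Ccl7, Ccl2, Cxcl9 and Cxcl12 overlapped in the same way, above Cxcl1 and Cxcl11. Against empty vector the order was another: Cx3cl1, Cxcl9 and Cxcl1, each overlapping the next, came before Cxcl10, the 5 genes from Cxcl11 to Ccl7 overlapped around 0, and Cxcl12 was lowest. A ratio orders changes, not levels, since each gene is set against its own control. The place of Cx3cl1 is that of its gene mean, which joins features that disagreed with FL (means 1.60 and 0.06). With DTA the arrays of its feature AB030188, from 0.47 to 1.20, overlapped those of Cxcl2.

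Of the 16328 genes measured on both platforms, those most like Cxcl10 over the 9 arrays were chosen by the smallest root mean square difference in log2 ratio. Gbp3, a guanylate-binding protein gene, was nearest at 0.63, with means of 5.47 (FL), 4.74 (DTA) and 0.37 (empty vector). Isg15, a ubiquitin-like protein gene, followed at 1.28, then Ddx60, an RNA helicase gene, at 1.45, Fmn1, a formin gene of the actin skeleton, at 1.63, Mx2, a dynamin-like antiviral GTPase gene, at 1.93 and Ifit1, an RNA-binding antiviral gene, at 1.96. Fmn1 differed from the others in having the higher mean with DTA, 4.08 against 3.01 with FL. Of the 9 arrays, 6 are those against untransfected cells, whose ratios singled Cxcl10 out. The measure thus favours genes with high ratios there, and nothing more is read from this list. None of the other 9 chemokine genes was among these 6, which follows from their lower ratios against untransfected cells.

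Of 25 other chemokine ligands measured, 5 rose and 13 fell with FL against untransfected cells, and the same numbers rose and fell with DTA (over all genes, 69.8% were called with FL, 34.7% higher and 35.1% lower, and 71.8% with DTA, 35.7% higher and 36.1% lower), with medians of -0.07 and -0.21. The highest was Ccl25, a thymus and gut chemokine, at 0.96 (SD 0.21, n = 3) with FL and 1.38 (SD 0.14, n = 3) with DTA, where its arrays overlapped those of Ccl5. It was lower with FL than with DTA (-0.42, limma adjusted p = 0.0487) and rose against empty vector (0.34, SD 0.03, n = 3, adjusted p = 0.0023). Xcl1, a ligand for cross-presenting dendritic cells, rose by 0.91 and 0.86 and had -0.22 against empty vector (limma adjusted p = 0.0818). Ccl12, a monocyte attractant of the same gene cluster as Ccl2 and Ccl7, fell with FL (-1.17, SD 0.28, n = 3). With DTA it was -0.80, -0.16 and exactly 0 (mean -0.32, SD 0.42, n = 3). Its difference FL minus DTA was -0.85 (limma adjusted p = 0.0421). Ccl24, eotaxin-2, was at -0.63 and -0.76.

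In FL minus DTA 2 of the 25 other ligands were called higher and 5 lower (18.2% and 16.1% of all genes). Ccl20, the Ccr6 ligand, was 0.19 with FL and -0.21 with DTA (difference 0.40, limma adjusted p = 0.000769), and Ccl9, the gene beside Ccl5, was -0.07 and -0.36 (difference 0.29, adjusted p = 0.00182). Against empty vector 4 of 26 were higher and 10 lower (30.6% and 32.8% of all genes). Among the lower ones were Ccl1, a Ccr8 ligand, at -0.39 (SD 0.02, n = 3, limma adjusted p = 0.00208) and Ccl19, a Ccr7 ligand, at -0.34 (SD 0.03, n = 3, adjusted p = 0.00225). Ccl11 on the 6 arrays, Ccl22 on all 9 and Cxcl5 on the 3 against empty vector were listed at a ratio of exactly 0. So were Ccl12 on DTA replicate 3 and Cxcl17 on FL replicate 2 against untransfected cells.

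Among 22 measured receptor genes, 10 rose and 5 fell with FL against untransfected cells and 9 rose and 3 fell with DTA. Over all genes 34.7% rose and 35.1% fell with FL, and 35.7% rose and 36.1% fell with DTA. Cxcr3, the receptor of Cxcl9, Cxcl10 and Cxcl11, was below 0 on all 9 arrays: -0.56 with FL (SD 0.31, n = 3), -0.22 with DTA (SD 0.03, n = 3) and -0.37 against empty vector (SD 0.04, n = 3, limma adjusted p = 0.00222). Its values against untransfected cells are given as a description. Cxcr4, the receptor of Cxcl12, rose by 0.17 with FL and 0.48 with DTA (difference -0.31, limma adjusted p = 0.00153) and fell to -0.34 against empty vector (adjusted p = 0.00235), where its 2 features had means of -0.76 and 0.09. Cxcr2, the receptor of Cxcl1 and Cxcl2, rose by 0.50 with FL and 0.76 with DTA (difference -0.26, limma adjusted p = 0.0319) and by 0.12 against empty vector (adjusted p = 0.00847), where its features were at -0.14 and 0.38.

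Of the other receptors, Ccr9, the receptor of Ccl25, fell with FL (-0.96, SD 0.02, n = 3) and with DTA (-1.10, SD 0.06, n = 3), and Ccr10 fell with both (-0.57 and -0.56). Cxcr5, a B cell receptor for Cxcl13, was higher with DTA (1.33, SD 0.22, n = 3) than with FL (0.62, SD 0.34, n = 3; difference -0.71, limma adjusted p = 0.0397), as was Ccrl2, an atypical receptor (0.45 and -0.01; difference -0.47, adjusted p = 0.000975). Ccr7 fell against empty vector (-0.44, SD 0.01, n = 3, limma adjusted p = 0.00208). Of 22 receptors, 1 was called higher and 7 lower in FL minus DTA (18.2% and 16.1% of all genes). Against empty vector 4 were called higher and 11 lower (30.6% and 32.8% of all genes).

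Genes for proteins that cleave or hold chemokines changed little. Of 7 measured, 1 rose and 2 fell with FL, 1 rose and 3 fell with DTA, and 2 rose and 2 fell against empty vector. Over all genes 34.7% rose and 35.1% fell with FL, 35.7% and 36.1% with DTA, and 30.6% and 32.8% against empty vector. Sdc4, a heparan sulfate proteoglycan that binds chemokines, fell in all 3 comparisons, to -0.47 (SD 0.06, n = 3), -0.51 (SD 0.05, n = 3) and -0.42 against empty vector (limma adjusted p = 0.00208). Ctsb, a lysosomal protease, rose by 0.29 with FL and 0.17 with DTA. Mmp2, a protease that clips Ccl7 and Cxcl12, was lower with FL than with DTA (difference -0.31, limma adjusted p = 0.0175). Dpp4, a peptidase that inactivates Cxcl10, was 0.12 against empty vector (SD 0.02, n = 3, limma adjusted p = 0.00831; features from -0.04 to 0.22). The Cx3cl1 sheddases Adam17 (0.06 with FL, -0.22 with DTA, FL minus DTA adjusted p = 0.0575) and Adam10 (0.09 against empty vector, adjusted p = 0.0263, features -0.12 and 0.30) had small ratios.

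Genes that control interferon signalling, the pathway behind Cxcl10 in most tissues, were split. Of 29 measured, 14 rose and 5 fell with FL and 16 rose and 7 fell with DTA, with 7 and 6 at least 2-fold higher. Over all genes 34.7% rose and 35.1% fell with FL, and 35.7% rose and 36.1% fell with DTA. By mean ratio, 1.19% and 1.82% of all genes were at least 2-fold higher. Stat2, a subunit of the transcription factor ISGF3, was 1.84 (SD 0.02, n = 3) and 1.89 (SD 0.06, n = 3), and Irf9, its DNA-binding partner, was 1.80 (SD 0.35, n = 3) and 1.84 (SD 0.12, n = 3). Usp18, a brake on interferon receptor signalling, was 2.42 (SD 0.83, n = 3) and 1.28 (SD 0.32, n = 3), a difference that was not called (1.14, limma adjusted p = 0.0917). Ddx58, the RNA sensor RIG-I, was 1.96 (SD 1.03, n = 3) and 1.79 (SD 0.52, n = 3), with arrays that overlapped. Against empty vector these 4 genes were 0.11 (adjusted p = 0.00703), 0.25 (0.00437), 0.00 (0.985) and 0.19 (0.0596), all limma adjusted p. The value of Ddx58 there joins 3 features with means from -0.07 to 0.36.

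Between the constructs 7 of these 29 genes were called higher with FL and 1 lower (18.2% and 16.1% of all genes). The lower one was Mavs, the adaptor of RNA sensors, at 0.22 with FL and 1.02 with DTA (difference -0.81, limma adjusted p = 0.000536). Irf2 (difference 0.40, adjusted p = 0.00113) and Ifngr1, a chain of the interferon gamma receptor (0.28, adjusted p = 0.00338), were higher with FL. Ifngr1 also rose against empty vector (0.36, SD 0.01, n = 3, limma adjusted p = 0.00208), as did Ifnar1, a chain of the type I receptor (0.24, SD 0.02, n = 3, adjusted p = 0.00253). Against empty vector 10 of 29 rose and 4 fell (30.6% and 32.8% of all genes).

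Interferon-stimulated genes rose with both constructs, 19 of 20 with FL and 18 of 20 with DTA, and none fell. Over all genes 34.7% and 35.7% rose. This list was chosen with earlier results of these data known, so its counts in every comparison are a description. The median of the list was 1.34 with FL, 0.94 with DTA and 0.16 against empty vector. There 16 of 21 rose, against 30.6% of all genes, and none was 2-fold higher. Examples besides those named as most like Cxcl10 are Irgm1, an immunity-related GTPase gene, at 2.97 and 2.58, Bst2 (tetherin) at 2.72 and 2.41, and Ifit2 at 1.02 and 0.45. These 3 genes and Isg15 (4.27 and 3.63) were higher with FL than with DTA, and the limma adjusted p of the difference was 0.00127 for Irgm1, 0.00117 for Bst2, 0.000578 for Ifit2 and 0.00123 for Isg15. In all 9 of 20 were called higher with FL and 1 lower (18.2% and 16.1% of all genes), and 10 were not called. Gbp3 was among the latter (difference 0.73, limma adjusted p = 0.293), and Cxcl10 was not called either.

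Genes of the NF-kappaB pathway showed smaller ratios: 11 of 20 rose and 4 fell with FL, and 9 rose and 2 fell with DTA, with medians of 0.13 and 0.02. Over all genes 34.7% rose and 35.1% fell with FL, and 35.7% rose and 36.1% fell with DTA. Nfkbib, Nfkbia and Nfkbiz, which code for inhibitors or modulators of NF-kappaB, were 0.83, 0.57 and 0.70 with FL and 0.86, 0.77 and 0.55 with DTA, and Icam1, an adhesion molecule, was 0.45 and 0.65. Between the constructs 3 of the 20 were called higher with FL and 4 lower, near the shares of all genes (18.2% and 16.1%). The lower ones were Traf1, an adaptor of tumour necrosis factor receptors (difference -0.45, limma adjusted p = 0.00372), the cytokine gene Il1b (-0.42, adjusted p = 0.0126), Icam1 (-0.20, adjusted p = 0.0129) and Nfkbia (-0.19, adjusted p = 0.00649). The higher ones were Nfkbiz (0.15, limma adjusted p = 0.0192), Nfkbie (0.30, adjusted p = 0.0112) and Il6 (0.40, adjusted p = 0.0020). Against empty vector 9 rose and 7 fell (30.6% and 32.8% of all genes), with Nfkbie at 0.42 (SD 0.04, n = 3, limma adjusted p = 0.00212) and Nfkb2 at -0.45 (SD 0.06, n = 3, adjusted p = 0.0025).

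**Figure D5:**
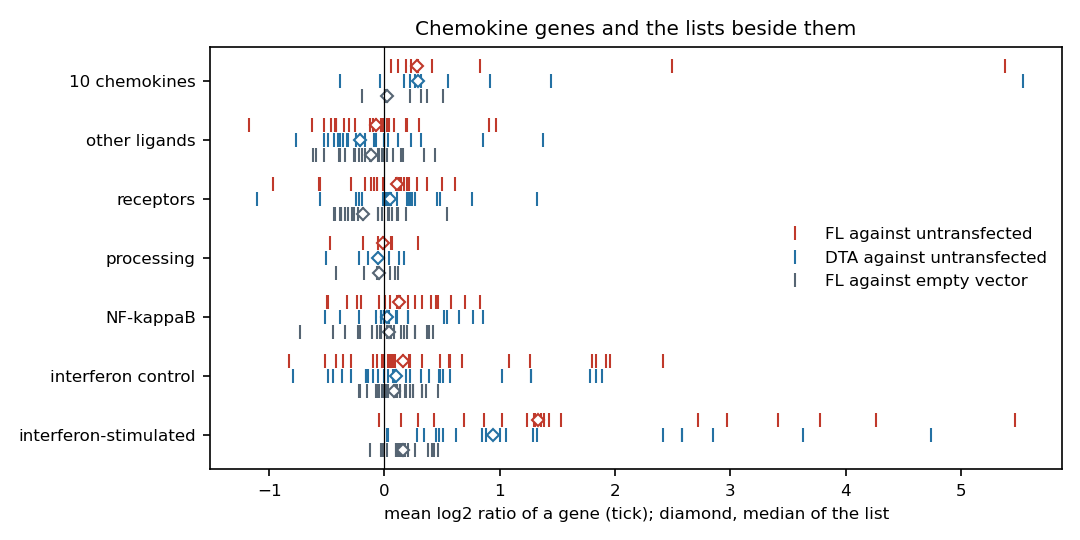
Mean log2 ratio of every measured gene (ticks) and the median (diamonds) of the 10 chemokines and of 6 lists beside them, in FL against untransfected cells (red), DTA against untransfected cells (blue) and FL against empty vector (grey). The median of the interferon-stimulated genes is 1.34, 0.94 and 0.16, and that of the other chemokine ligands is -0.07, -0.21 and -0.12.

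Of 10 measured immune cell markers none rose and 6 fell with FL against untransfected cells (range -0.64 to 0.23), and 1 rose and 5 fell with DTA (range -0.63 to 0.37). Over all genes 34.7% rose and 35.1% fell with FL, and 35.7% rose and 36.1% fell with DTA. Ptprc (CD45), the marker of all white blood cells, was listed at exactly 0 on the 3 FL arrays and on 2 of the 3 DTA arrays. Of 10 fibroblast markers 3 rose and 5 fell with FL and 3 rose and 3 fell with DTA, and of 5 endothelial markers none rose and 4 fell with FL and 1 rose and 2 fell with DTA. Ratios give no summed level of these lists, and their part in the chemokine ratios was not tested. The 13 measured sympathoadrenal markers ranged from -0.47 to 0.24 with FL, with 4 higher and 6 lower, and from -0.59 to 1.31 with DTA, with 6 higher and 4 lower. The highest with DTA was Mycn, an oncogene of neuroblastoma, at 1.31 against -0.17 with FL (difference -1.48, limma adjusted p = 0.000185).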

How the data were processed

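RNA was hybridised to 9 Agilent 2-colour arrays, with CCAT RNA in Cy3 and control RNA in Cy5 per the labels, and the labels name Rossetta Luminator as the analysis system. The deposited values are 1 log10 ratio of both channels per feature. Base 10 is inferred from the values, which stop at exactly -2 on some arrays. Background correction and dye normalization are not given in the sources used here, and no intensities, flags or spot counts could be used, so the number of arrays limits the precision. The 6 arrays against untransfected cells held 22393 features, of which 18218 had 1 gene symbol in the platform annotation, 16 several and 4159 none. The other 3 arrays held 43790, of which 32042 had 1 symbol, 47 several and 11701 none. Per array, 344 to 384 and 724 to 747 ratios were exactly 0.

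The log10 values deposited by the authors were converted to log2 and features of a gene were averaged, giving 16504 and 19087 genes. No further scaling was applied. limma 3.58.1 (R 4.3.3, lmFit and eBayes) was fitted once to the 6 arrays, with 4 residual degrees of freedom, and once to the 3 arrays, with 2, with Benjamini-Hochberg adjustment over all genes and a threshold of 0.05. The fits were tested on simulated data. The members and the lists of genes were chosen with earlier results of these data known, and the members' ratios against untransfected cells are therefore given without a test. Counts of list genes called are, for the same reason, a description in every comparison. Named were every member, per list the 4 genes of largest mean ratio against untransfected cells and the 4 of smallest p in FL minus DTA or against empty vector among those past the threshold, and the 6 genes nearest to Cxcl10. Ptprc, Adam17, Adam10 and the genes beside Cxcl10 and Ccl5 were named besides for their role or place. Ccl11, Ccl22, Cxcl5 and Cxcl17 were named for their ratios of 0. Traf1, Il1b and Mycn were chosen after their values were seen. Alternatives were array median and quantile scaling, feature medians or single features, zeros as missing, leaving out genes that barely varied, robust eBayes, separate fits, a replicate block, a 2-fold threshold and leaving out each array.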

Additional observations from a re-analysis of the deposited data

Results flagged for a closer look

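For 3 chemokine genes the ratio against untransfected cells differed between the 2 constructs by limma's test of the difference, FL minus DTA. For Ccl5 the difference in log2 ratio was 1.05, with all 3 FL arrays above all 3 DTA arrays. For Cxcl1 it was 0.156, with FL above DTA on every array, and for Cxcl2 it was -0.258, with DTA above FL on every array. The ratios of Cxcl1 stayed between -0.076 and 0.135, and leaving out genes that barely varied removed this gene from the test. With the replicate number as a block Cxcl1 was no longer called (limma adjusted p = 0.0502). The test called 34.2% of all genes in this comparison.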

How the results depend on the processing

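With a 2-fold threshold added, calls over all genes fell to 268 (FL against untransfected), 384 (DTA), 69 (FL minus DTA) and 50 (FL against empty vector), and member calls to 1 (Ccl5) in FL minus DTA and 0 against empty vector. FL minus DTA called 3415 to 5836 genes when each array was left out, with the 3 lowest counts, 3731, 3595 and 3415, without DTA replicate 1, 2 and 3, and 1 to 4 members. The other comparisons called 10347 to 11349 genes (FL), 10113 to 12566 (DTA) and 8400 to 9788 (FL against empty vector) without 1 array, the last with 4 members each time. Against empty vector, leaving out barely varying genes gave 7629 calls of 9132 genes, and testing single features, an alternative chosen after seeing the data, 20530 of 32042. Single features turned the direction of Cx3cl1 in FL minus DTA (0.67 on NM_009142), of Ccl7 (-0.15) and of Cxcl12 (0.027 on NM_013655) against empty vector; the cause was not tested. Deviations of same-numbered FL and DTA arrays correlated weakly, at r = -0.043, 0.091 and -0.0025. With 3 arrays per group this cannot settle whether the replicate number pairs the samples. With the replicate number as a block (replicate block), FL minus DTA called 4016 genes, against 5646 without it, and Cxcl1 had a limma adjusted p of 0.0502. The ratio of Cxcl10 with DTA was 5.64 after quantile normalization. Several differences near 0 that no test called changed sign. For FL minus DTA, leaving out single arrays gave -0.12 to 0.14 for Cxcl9 and -0.0076 to 0.040 for Cxcl12, and quantile normalization gave 0.025 for Cx3cl1. Against empty vector, leaving out single arrays gave -0.049 to 0.089 for Cxcl11, -0.038 to 0.073 for Ccl7 and -0.015 to 0.027 for Cxcl2, and the feature BC033508 gave -0.056 for Ccl5. Without intensities, signal over background cannot be set against any ratio.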
